A study of Mus musculus with 9 samples.

Results

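The core loop of the circadian clock was followed through 10 genes in mouse skin: Arntl, Clock, Npas2, Per1, Per2, Per3, Cry1, Cry2, Nr1d1 and Nr1d2. They were taken by name from gene tables that list 49585 genes each, by a rule that uses no measured value. The choice was made with earlier results of these data known. Each gene was read by its exon reads, which follow the amount of its RNA, and by its intron reads, which come mostly from RNA not yet spliced and serve as a sign of new transcription. Total RNA extracted from skin was made into 9 libraries and sequenced. Of these, 3 came from mice labelled IL-6 -/- on the C57BL/6 strain (IL-6 KO), 3 from wild-type BALB/c mice and 3 from wild-type C57BL/6 mice. All mice came at 4 to 5 weeks of age, were given 2 weeks to settle and were 6 weeks old at the start. They were shaved on day 0, had no treatment for 7 days, and their skin was taken on day 8. The protocol speaks of 6 IL-6 KO, 3 BALB/c and 3 C57BL/6 mice and does not say which mouse or mice gave which library, so each p-value rests on the variation from library to library, part of which may be technical. The labels used here do not give the hour of day at which skin was taken, and the levels of these genes depend on it, so group and hour of collection cannot be told apart. By its title the series sets skin of mice with different immune backgrounds side by side.

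The clock runs as a loop of transcription. BMAL1, the protein of Arntl, pairs with CLOCK or NPAS2 and binds E-box motifs to switch on the Per and Cry genes, whose proteins return to the nucleus and silence that pair. BMAL1 also switches on Nr1d1 and Nr1d2, which encode the nuclear receptors REV-ERB alpha and REV-ERB beta, and these repress Arntl, Npas2 and Cry1 through ROR elements. Another motif, the D-box, is bound by DBP, TEF and HLF as activators and by NFIL3 as a repressor. In skin the loop runs in keratinocytes, hair follicles, fibroblasts and other cells, and its state in follicles is tied to the hair cycle.

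The motifs through which these arms act are shown here because the results below turn on genes of both. Of the 10 genes, 9 have promoter windows in RefSeq (GRCm38.p6), 13 windows in all, each running from 250 bases before a transcription start to 50 bases after it. Letters searched on both strands were CACGTG for the E-box, CACGTT for its variant, TAGGTCA and TGGGTCA for the ROR element, TTANGTAA for the D-box and TGACGTCA for the cAMP response element. No pair of these overlapped in a member's window. Capitals mark the matches, and AACGTG is CACGTT read from the other strand. The stretches of 250 bases end at the base before the start.
Per1, chr11:69098699-69098948, plus strand: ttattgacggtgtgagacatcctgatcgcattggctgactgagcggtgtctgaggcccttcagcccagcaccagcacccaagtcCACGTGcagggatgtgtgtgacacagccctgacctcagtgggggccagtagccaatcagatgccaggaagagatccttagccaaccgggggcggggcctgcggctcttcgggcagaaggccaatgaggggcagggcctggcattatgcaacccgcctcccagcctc
Cry1, chr10:85185055-85185304, minus strand: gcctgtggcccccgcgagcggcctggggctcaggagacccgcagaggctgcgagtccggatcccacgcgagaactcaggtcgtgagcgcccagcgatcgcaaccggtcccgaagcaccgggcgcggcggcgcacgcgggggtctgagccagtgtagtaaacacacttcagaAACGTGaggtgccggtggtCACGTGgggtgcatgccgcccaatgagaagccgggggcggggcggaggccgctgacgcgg
Nr1d1, chr11:98775378-98775627, minus strand: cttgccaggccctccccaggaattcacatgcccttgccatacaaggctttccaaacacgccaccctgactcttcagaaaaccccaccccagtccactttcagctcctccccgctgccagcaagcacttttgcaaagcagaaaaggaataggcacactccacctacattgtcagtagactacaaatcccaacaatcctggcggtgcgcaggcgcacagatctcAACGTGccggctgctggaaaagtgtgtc
Per3, chr4:151044666-151044915, minus strand: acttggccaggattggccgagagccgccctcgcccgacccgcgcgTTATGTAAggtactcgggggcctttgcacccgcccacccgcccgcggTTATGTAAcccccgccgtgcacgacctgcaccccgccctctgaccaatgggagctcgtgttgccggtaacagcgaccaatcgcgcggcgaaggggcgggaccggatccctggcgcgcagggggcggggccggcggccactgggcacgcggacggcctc
Arntl, chr7:113207530-113207559, plus strand: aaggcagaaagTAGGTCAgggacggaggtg

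The E-box lay 166 bases before the start in Per1 and 60 bases before it in Cry1, and it was found in 7.15% of all 32851 windows. Its variant lay 79 bases before the start of Cry1, 28 before that of Nr1d1 and 166 before that of Cry2, against 4.68% of all windows. Per3 held 2 D-boxes, 205 and 158 bases before its start, a motif found in 2.32% of windows. The ROR element of Arntl began 30 bases after the downstream of its RefSeq starts, and 6.45% of all windows held one. No member's window held the cAMP response element, which occurred in 1.79% of windows. These matches describe letters and were not tested as binding sites.

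Depth and the label were looked at before the clock. Total exon reads ran from 3843953 to 4476346 in the 3 IL-6 KO libraries, called KO-labelled below,, from 6115739 to 6242332 in BALB/c and from 6083876 to 6882193 in C57BL/6. Intron reads made up 7.80% to 8.84% of gene reads in the KO-labelled libraries, 6.90% to 8.87% in BALB/c and 5.73% to 7.09% in C57BL/6. Il6 itself had 6, 24 and 1 exon reads in the KO-labelled libraries, 0, 2 and 0 for BALB/c and 2, 1 and 0 for C57BL/6. Its intron reads were 7, 12 and 5 in the KO-labelled libraries and 0 in every wild-type library. Those reads run against the label, and the deleted part of the gene is not in the labels, so every direction below that involves these libraries rests on the label. IL-6 KO replicate 2 differed from replicates 1 and 3 in its cell type markers, given further on, so each count of members was also taken without it.

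The Per genes, Cry2 and both REV-ERB genes were low in the KO-labelled libraries, Arntl was higher with a less stable call, and Cry1, Clock and Npas2 did not pass the test. Against C57BL/6, Per1, Per2, Per3, Cry2, Nr1d1 and Nr1d2 were lower, 6 of the 10 members, and Arntl was higher. Against BALB/c, Per1, Per2, Per3, Cry2, Nr1d1 and Nr1d2 were lower and Arntl higher. Among all 14415 genes tested, 35.2% were called against C57BL/6 (16% lower and 19.2% higher), and 37.3% against BALB/c (17.4% lower and 19.9% higher). Both comparisons use the same 3 KO-labelled libraries, so the counts are not independent. The median log2 fold change of the 10 members was −0.86 against C57BL/6 and −0.93 against BALB/c, whereas that of all genes was 0.01 in each. A gene is called here when its adjusted p is under 0.05 in edgeR's quasi-likelihood test, adjusted by Benjamini-Hochberg over all genes tested, and fold changes are log2 values ± SE. The 6 lower genes did not overlap between the groups in either comparison, a state reached downwards by 23% of all genes against C57BL/6 and by 24% against BALB/c. Without IL-6 KO replicate 2 the count of called members was 6 against C57BL/6 and 9 against BALB/c, where Cry1 (0.99, adjusted p = 0.00805) and Clock (−0.63, adjusted p = 0.0220) were added. The share of all genes called in that fit is not reported here, so its counts cannot be set against a background. In bulk RNA, fewer cells that express a gene and less RNA of it per cell cannot be told apart.

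**Figure D1:**
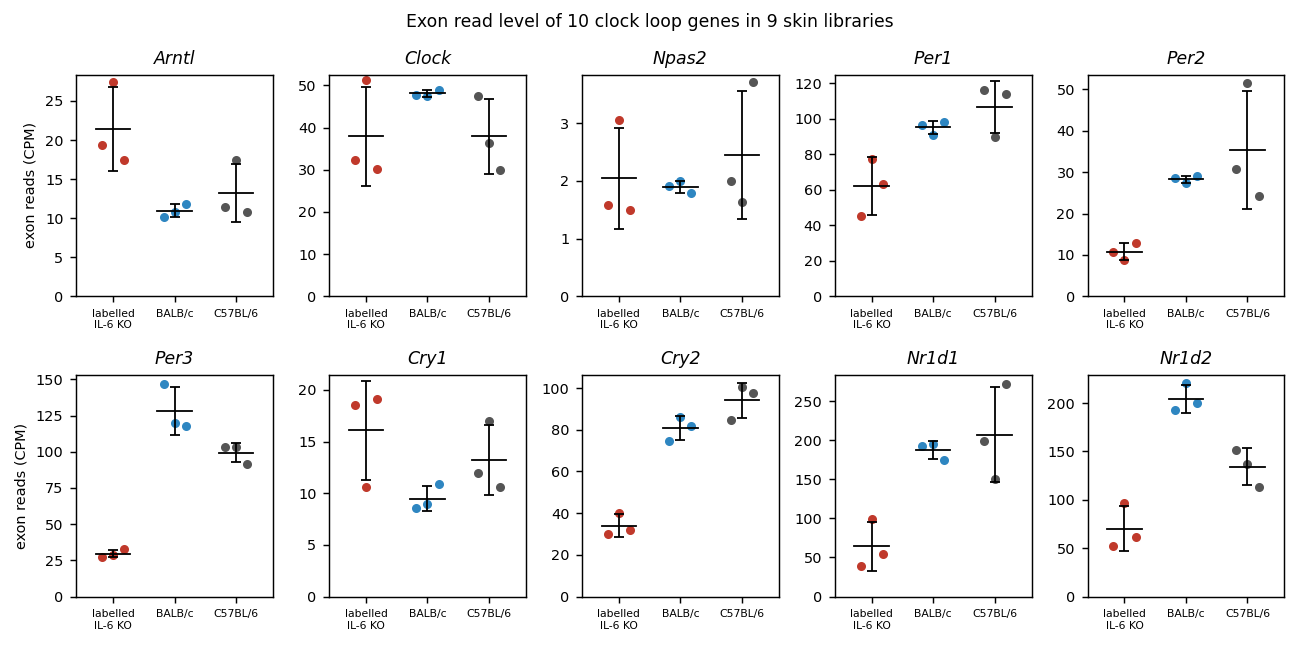
Exon read counts scaled to library size (CPM, y axes from 0) of each clock loop gene in the 9 libraries, with the mean and SD of 3 libraries per group. Per2, Per3, Cry2 and Nr1d1 lie lower in every KO-labelled library than in every other library, and the mean of Arntl is highest there.

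Arntl, the partner that carries the rhythm of the activating pair, spans chr7:113207465-113314126 on the plus strand (GRCm38). Its exon level was 19.3, 27.5 and 17.4 CPM in the KO-labelled libraries, 10.2, 10.8 and 11.8 CPM in BALB/c, and 11.4, 17.4 and 10.8 CPM in C57BL/6. The KO-labelled libraries lay above all BALB/c libraries, and replicate 3 of them lay level with C57BL/6 replicate 2, the high library of its group. Of all genes, 24.6% lay apart upwards in this way from C57BL/6, where 0 members did, and 26.7% from BALB/c, where Arntl was the 1 member. The log2 fold change was 0.97 ± 0.245 relative to BALB/c (adjusted p = 0.0134) and 0.69 ± 0.242 relative to C57BL/6 (adjusted p = 0.0496). The call against C57BL/6 stood in 5 of 20 settings, with adjusted p from 0.0182 to 1, and leaving out any 1 library other than C57BL/6 replicate 2 ended it (adjusted p up to 0.168). The settings of each gene include a test against a minimum log2 fold change of 1, which a smaller estimate cannot pass. For Arntl that test gave the highest adjusted p. They also include the authors' Expression value, which differs between the tables as described below. The call against BALB/c ended without BALB/c replicate 2 (0.94, adjusted p = 0.0505).

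Clock, the histone acetyltransferase that pairs with BMAL1 (chr5:76209868-76304792, minus strand), had no exon difference that passed the test. It stood at 32.3, 51.3 and 30.1 CPM in the KO-labelled libraries, 47.8, 47.6 and 49.0 CPM in BALB/c, and 47.5, 36.2 and 29.9 CPM in C57BL/6. The groups overlapped in both comparisons with the KO-labelled libraries, of which replicate 2 was the high one. Its log2 fold change was 0.00 ± 0.226 relative to C57BL/6 (adjusted p = 0.996) and −0.34 ± 0.225 relative to BALB/c (adjusted p = 0.259). Npas2, the other partner of BMAL1 (chr1:39193731-39363236, plus strand), was rare, with 6, 15 and 7 exon reads in the KO-labelled libraries, 12, 12 and 11 for BALB/c, and 13, 11 and 20 for C57BL/6. At that depth its SE was 0.426 against C57BL/6, around a log2 fold change of −0.23 (adjusted p = 0.708), and a change as large as that of Arntl would not have been detectable. Against BALB/c its value was 0.12 ± 0.434 (adjusted p = 0.845).

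Among the repressors, the 3 Per genes and Cry2 were lower in the KO-labelled libraries. Per1 (chr11:69095217-69109960, plus strand), the Per gene that also answers to cAMP and glucocorticoids, changed least of them. Its level was 45.2, 77.6 and 63.5 CPM in the KO-labelled libraries, 96.3, 91.0 and 98.1 CPM in BALB/c and 116, 89.9 and 114 CPM in C57BL/6. Each of the first 3 libraries lay below all others, the nearest being IL-6 KO replicate 2. The log2 fold change was −0.78 ± 0.190 relative to C57BL/6 (adjusted p = 0.0121) and −0.61 ± 0.190 relative to BALB/c (adjusted p = 0.0310). The call against BALB/c stood in 11 of 20 settings and ended without IL-6 KO replicate 1 or 3 or any BALB/c library (adjusted p from 0.0594 to 0.0857).

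Per2, which with Per1 is needed for behavioural rhythm in mice (chr1:91415982-91459324, minus strand), fell further. It stood at 10.6, 8.76 and 12.9 CPM in the KO-labelled libraries, 28.5, 27.3 and 29.0 CPM in BALB/c, and 30.7, 51.5 and 24.1 CPM in C57BL/6. The KO-labelled libraries were low together, and C57BL/6 replicate 2 was the highest of all. Log2 fold changes were −1.72 ± 0.279 relative to C57BL/6 (adjusted p = 0.00185) and −1.39 ± 0.280 relative to BALB/c (adjusted p = 0.00489). Against C57BL/6 the call held in all 20 settings, with values from −1.96 to −1.35.

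Per3, a Per gene that mice can lose with little effect on behavioural rhythm (chr4:151003652-151044665, minus strand), was the member with the smallest p against both wild types. It ranked 10th of 14415 genes by p against C57BL/6 and 18th against BALB/c. Its level was 27.5, 28.9 and 32.7 CPM in the KO-labelled libraries, 147, 120 and 118 CPM in BALB/c, and 103, 103 and 91.5 CPM in C57BL/6. The KO-labelled libraries lay far below the rest, while BALB/c and C57BL/6 lay nearer to each other. The log2 fold change was −1.74 ± 0.137 relative to C57BL/6 (adjusted p = 4.20e-04) and −2.11 ± 0.138 relative to BALB/c (adjusted p = 4.31e-05).

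Cry2, a cryptochrome that represses the activating pair (chr2:92403646-92434043, minus strand), stood at 30.1, 40.1 and 31.8 CPM in the KO-labelled libraries, 74.7, 86.0 and 81.6 CPM in BALB/c, and 84.5, 101 and 97.5 CPM in C57BL/6. All 3 KO-labelled libraries lay far below the rest. It was lower, with a log2 fold change of −1.47 ± 0.143 relative to C57BL/6 (adjusted p = 4.29e-04) and −1.24 ± 0.143 relative to BALB/c (adjusted p = 4.56e-04). Cry1, its paralogue and itself a target of the ROR element (chr10:85131700-85185064, minus strand), did not follow it. Cry1 stood at 18.5, 10.6 and 19.1 CPM in the KO-labelled libraries, 8.60, 8.98 and 10.9 CPM in BALB/c, and 12, 17.0 and 10.6 CPM in C57BL/6. IL-6 KO replicates 1 and 3 were above all other libraries, while replicate 2 lay within the wild types. Its log2 fold change was 0.28 ± 0.269 relative to C57BL/6 (adjusted p = 0.452) and 0.76 ± 0.274 relative to BALB/c (adjusted p = 0.0551).

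Nr1d1, the gene of REV-ERB alpha (chr11:98767932-98775333, minus strand), stood at 38.6, 99.4 and 54.8 CPM in the KO-labelled libraries, 193, 195 and 174 CPM in BALB/c, and 199, 151 and 272 CPM in C57BL/6. The groups did not overlap, though IL-6 KO replicate 2 and C57BL/6 replicate 2 approached each other. Its log2 fold change was −1.68 ± 0.330 relative to C57BL/6 (adjusted p = 0.00445) and −1.54 ± 0.329 relative to BALB/c (adjusted p = 0.00642). Nr1d2 (chr14:18204054-18239127, minus strand) stood at 51.8, 96.5 and 61.8 CPM in the KO-labelled libraries, 193, 221 and 200 CPM in BALB/c, and 151, 138 and 113 CPM in C57BL/6. All 3 groups were apart, with BALB/c highest and the KO-labelled libraries lowest. It was lower, at −0.93 ± 0.221 relative to C57BL/6 (adjusted p = 0.0105) and −1.54 ± 0.224 relative to BALB/c (adjusted p = 0.00110). With reads over a splice junction alone, of which Nr1d2 had 132 in the KO-labelled libraries and 330 in C57BL/6, the call against C57BL/6 missed the threshold (−0.85, adjusted p = 0.0545). Over its settings the adjusted p ran from 5.39e-04 to 1, the highest with the minimum log2 fold change of 1.

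Levels of different genes were compared as exon CPM per kilobase of exon. In the KO-labelled libraries the order was Nr1d1 (20.9 ± 10.2), Nr1d2 (14.0 ± 4.69), Per1 (11 ± 2.88), Arntl (5.80 ± 1.45), Cry2 (5.39 ± 0.843), Cry1 (4.81 ± 1.42), Per3 (3.09 ± 0.279), Clock (2.76 ± 0.849), Per2 (1.84 ± 0.359) and Npas2 (0.426 ± 0.183), mean ± SD over 3 libraries. In that order Nr1d1 and Nr1d2 do not differ beyond their spread, nor do Nr1d2 and Per1, Arntl and Cry2, Cry2 and Cry1, or Per3 and Clock. In C57BL/6 it was Nr1d1 (67.3 ± 19.8), Nr1d2 (26.8 ± 3.81), Per1 (18.9 ± 2.57), Cry2 (14.9 ± 1.34), Per3 (10.3 ± 0.690), Per2 (6.05 ± 2.43), Cry1 (3.95 ± 1.01), Arntl (3.58 ± 1.00), Clock (2.76 ± 0.650) and Npas2 (0.512 ± 0.231). There Per2 and Cry1 do not differ beyond their spread, nor do Cry1 and Arntl, or Arntl and Clock. In BALB/c it was Nr1d1 (60.9 ± 3.72), Nr1d2 (40.9 ± 2.89), Per1 (16.9 ± 0.661), Per3 (13.3 ± 1.70), Cry2 (12.8 ± 0.902), Per2 (4.83 ± 0.154), Clock (3.50 ± 0.0560), Arntl (2.97 ± 0.226), Cry1 (2.84 ± 0.364) and Npas2 (0.396 ± 0.0222), where Per3 and Cry2 do not differ beyond their spread, nor do Arntl and Cry1. Arntl therefore stood above Per2 and Per3 per length in the KO-labelled libraries and below both in the wild types.

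The ratio of Arntl to Nr1d1 reads within a library does not depend on how libraries are scaled to each other, and it sets an activator against the repressor of its own gene. On the log2 scale it was −1.0, −1.85 and −1.65 for exon reads in the KO-labelled libraries, −4.24, −4.17 and −3.88 for BALB/c, and −4.13, −3.11 and −4.66 for C57BL/6. Every KO-labelled library had a higher ratio than every wild-type library, and C57BL/6 replicate 2 was the highest of the wild types. The mean difference was 2.46 against C57BL/6 and 2.6 against BALB/c, and each gave p = 0.1 in a two-sided exact permutation test, the smallest p that 3 against 3 allows. Intron reads gave log2 ratios of 1.04, 0.33 and 0.13 in the KO-labelled libraries, −1.68, −2.02 and −1.32 for BALB/c, and −2.05, −0.82 and −2.26 for C57BL/6. The intron ratio was again higher in each KO-labelled library than in each wild-type library, by 2.21 on average against C57BL/6 and 2.17 against BALB/c (exact permutation p = 0.1 for both). For Arntl over Per3 the exon ratio was higher by 2.45 against C57BL/6 and 3.05 against BALB/c, and for Npas2 over Nr1d2 by 0.72 (exact permutation p = 0.4) and 1.62.

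**Figure D2:**
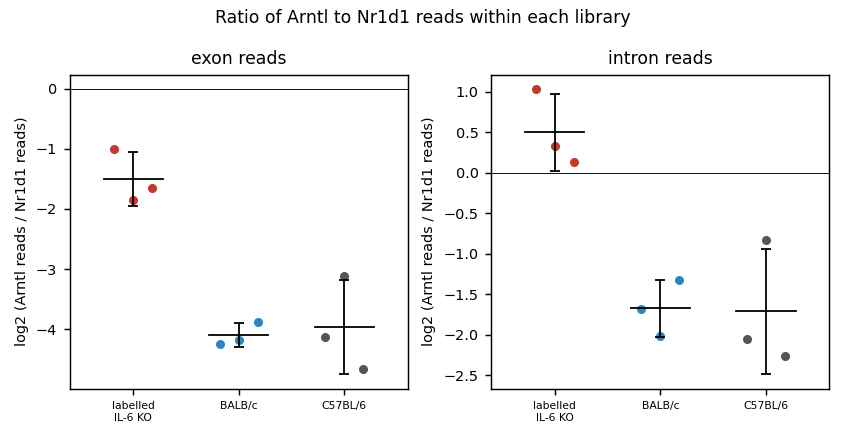
Log2 ratio of Arntl to Nr1d1 reads in each library, for exon reads (left) and intron reads (right), with the mean and SD of 3 libraries per group. The KO-labelled libraries average −1.50 for exon reads and 0.50 for intron reads, above every wild-type library in both panels.

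Intron reads changed in the same direction for most members. Of the 10, Cry1 and Npas2 had too few intron reads to pass the filter, so 8 were tested. Against C57BL/6, Per2, Per3, Cry2 and Nr1d1 were lower and Arntl and Clock higher, 6 calls of 8, where 23.4% of all 10378 genes were called (11.4% lower and 11.9% higher). Against BALB/c, the lower genes were Per2, Per3, Cry2, Nr1d1 and Nr1d2, with Arntl alone higher, where the calls over all genes were also 23.4% (12.2% lower and 11.2% higher). Without IL-6 KO replicate 2 the count was 8 against C57BL/6 and 7 against BALB/c, with 9 members through the filter. Per1 was among the added calls relative to C57BL/6 (−0.82, adjusted p = 0.0439). Leaving out IL-6 KO replicate 1 left 4 calls in each comparison, and so did C57BL/6 replicate 1 or 3 against C57BL/6. Shares of all introns called in these fits are not reported here, so the counts describe the members alone.

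Per2 had the deepest intron change. It had 4, 6 and 3 intron reads in the KO-labelled libraries, 67, 39 and 27 for BALB/c, and 42, 60 and 20 for C57BL/6. The KO-labelled libraries were close to empty of Per2 introns, and no library of theirs reached the lowest wild-type one. Its intron log2 fold change was −2.94 ± 0.421 relative to C57BL/6 (adjusted p = 1.73e-04) and −2.92 ± 0.419 relative to BALB/c (adjusted p = 1.35e-04). Nr1d1 introns had 19, 31 and 32 reads in the KO-labelled libraries, 90, 81 and 65 for BALB/c and 87, 62 and 91 for C57BL/6. They were lower, at −1.37 ± 0.266 relative to C57BL/6 (adjusted p = 0.00173) and −1.16 ± 0.267 relative to BALB/c (adjusted p = 0.00546). Both calls of Nr1d1 held in all alternatives tried.

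Cry2 introns were lower relative to C57BL/6 (−1.27 ± 0.264, adjusted p = 0.00276) and relative to BALB/c (−0.98 ± 0.265, adjusted p = 0.0149). The call against BALB/c ended without IL-6 KO replicate 1 or 3 (adjusted p of 0.0730 and 0.0776) and on unique intron reads (−0.90, adjusted p = 0.0631). Unique reads were 56.6% of Cry2 intron reads in the KO-labelled libraries, 54.8% in BALB/c and 57.7% in C57BL/6. Arntl introns had 39, 39 and 35 reads in the KO-labelled libraries, 28, 20 and 26 for BALB/c and 21, 35 and 19 for C57BL/6. Arntl introns reached 125, 102 and 85.3 CPM in the KO-labelled libraries, above the 70.4 CPM of the highest wild-type library, C57BL/6 replicate 2. The log2 fold change was 0.84 ± 0.264 relative to C57BL/6 (adjusted p = 0.0317) and 0.98 ± 0.264 relative to BALB/c (adjusted p = 0.0143). The first call ended without IL-6 KO replicate 1 or C57BL/6 replicate 1 or 3 (adjusted p between 0.0806 and 0.126) and also under DESeq2 (0.87, adjusted p = 0.0711), and the second without IL-6 KO replicate 1 or BALB/c replicate 2 (adjusted p of 0.0649 and 0.0575). Per1 introns gave −0.64 ± 0.265 relative to C57BL/6 (adjusted p = 0.0963) and −0.62 ± 0.263 relative to BALB/c (adjusted p = 0.101), neither past the threshold.

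**Figure D3:**
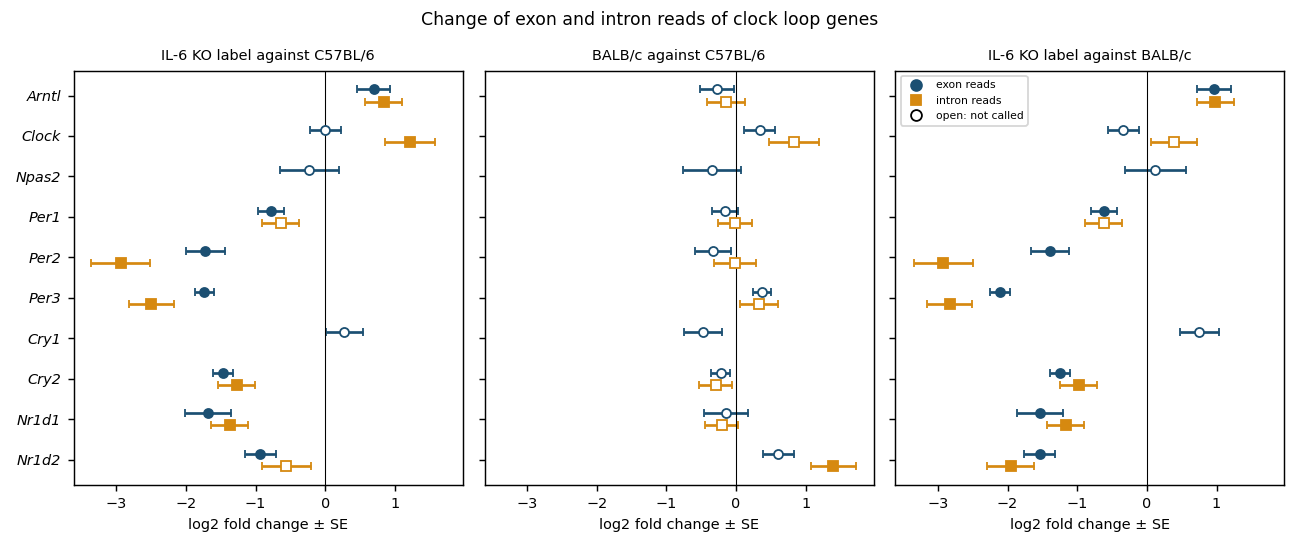
Log2 fold change ± SE of exon reads (circles) and intron reads (squares) of each clock loop gene in the 3 comparisons, with filled symbols where the adjusted p is under 0.05. Arntl lies right of 0 and Per2, Per3, Cry2 and Nr1d1 left of it for both kinds of read in the outer panels, while the middle panel, BALB/c against C57BL/6, has only the Nr1d2 intron symbol filled.

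Whether exon and intron reads of a gene changed by different amounts was tested directly, as the exon change minus the intron change. Against C57BL/6, 6.27% of all 9760 genes tested differed in this way, and of the 8 members only Clock did (−1.25 ± 0.351, adjusted p = 0.0268). Clock intron reads were 19, 26 and 22 in the KO-labelled libraries, 16, 25 and 24 for BALB/c and 10, 18 and 6 for C57BL/6, a log2 change of 1.22 ± 0.362 relative to C57BL/6 (adjusted p = 0.0243). The pseudogene Ube2n-ps1 and Gm43658 lie inside Clock on its strand. Reads counted as unique were 47.8% of Clock intron reads in the KO-labelled libraries, 75.4% in BALB/c and 82.4% in C57BL/6. With those unique intron reads alone the intron change of Clock was 0.44 (adjusted p = 0.467) and the exon minus intron difference was −0.46 (adjusted p = 0.561), so both calls ended. The intron call of Clock also ended without IL-6 KO replicate 1 or C57BL/6 replicate 1 or 3 (adjusted p from 0.0560 to 0.0802). The difference call of Clock also ended without IL-6 KO replicate 1 or 3 or C57BL/6 replicate 1 or 3 (adjusted p from 0.0756 to 0.174). With scaling by library size alone, which also moved the median difference of all genes upwards, it ended too (−1.01, adjusted p = 0.0615).

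Against BALB/c, where 9.2% of all genes differed between exon and intron change, Per2 was the one member called, its introns being lower by more than its exons (1.53 ± 0.433, adjusted p = 0.0207). Against C57BL/6 the same quantity was 1.22 ± 0.442 for Per2 (adjusted p = 0.0949). The Per2 call ended without IL-6 KO replicate 1 or 3 or BALB/c replicate 1 (adjusted p from 0.0504 to 0.229), and its 13 intron reads over the 3 KO-labelled libraries set the precision.

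The wild-type groups, BALB/c and C57BL/6, were also compared with each other. Of the 10 members, 0 were called in exon reads between BALB/c and C57BL/6, and 2 (Per3 and Nr1d2) had an unadjusted p under 0.05 in edgeR's quasi-likelihood test. DESeq2 also called 0. Without IL-6 KO replicate 2, which enters the shared estimate of spread, Nr1d2 was called (0.61, adjusted p = 0.0373). Over all genes 3.41% were called, 1.63% higher and 1.78% lower. Per3 gave 0.37 ± 0.130 (adjusted p = 0.163), Nr1d2 0.61 ± 0.218 (adjusted p = 0.171) and Clock 0.34 ± 0.223 (adjusted p = 0.437), and for these 3 members every BALB/c library was above every C57BL/6 library. Over all genes 14.6% were apart upwards in this way and 15.6% downwards, against 0 members downwards. The other 7 members had log2 fold changes from −0.48 for Cry1 to −0.14 for Nr1d1.

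One intron difference was called between the strains. Nr1d2 introns had 240, 176 and 194 reads in BALB/c and 109, 78 and 28 in C57BL/6. The groups were apart, and C57BL/6 replicate 3 was the lowest by far. The log2 fold change was 1.40 ± 0.323 (adjusted p = 0.0172), where 6.47% of all genes were called in introns, 3.8% higher and 2.67% lower. The exon change was smaller than the intron change by −0.82 ± 0.215 (adjusted p = 0.0166), where 4.66% of all genes differed in this way. Both Nr1d2 calls ended without BALB/c replicate 3 or C57BL/6 replicate 2 or 3 (adjusted p from 0.0614 to 0.119). The exon ratio of Arntl to Nr1d1 differed by −0.13 between BALB/c and C57BL/6 (exact permutation p = 0.8), and the intron ratio by 0.04 (exact permutation p = 0.9). Exon ratios of the other pairs were lower in every BALB/c library than in every C57BL/6 library. They differed by −0.60 for Arntl over Per3 and −0.90 for Npas2 over Nr1d2 (exact permutation p = 0.1 for both).

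How reads were assigned bears on Per3 above all. Per3 lies wholly inside Camta1 (chr4:150917322-151861876), a gene of the same strand with which it shares no exon bases. Only 25.3% of Per3 exon reads in the KO-labelled libraries, 20.5% in BALB/c and 24.6% in C57BL/6 were counted as unique, and the unique ones were nearly all reads over a splice junction (101 of 101 in the KO-labelled libraries). Junction reads numbered 29, 34 and 38 in the KO-labelled libraries, 195, 128 and 163 for BALB/c, and 158, 161 and 144 for C57BL/6. They showed the same fall as all exon reads, with a log2 fold change of −1.75 relative to C57BL/6 (adjusted p = 3.87e-04) and −1.91 relative to BALB/c (adjusted p = 2.60e-04). The authors' Expression value column equals total exon reads in 100% of genes in the tables of the KO-labelled libraries and in 88.7% to 89.5% of genes in the others, where for Per3 it summed to 489 reads in BALB/c and 464 in C57BL/6, near the unique exon reads (485 and 456). On that column Per3 turned to 0.14 relative to C57BL/6 (adjusted p = 0.513) and 0.04 relative to BALB/c (adjusted p = 0.868).

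Per3 introns had 7, 28 and 30 reads in the KO-labelled libraries, 242, 187 and 161 for BALB/c and 189, 128 and 104 for C57BL/6, with IL-6 KO replicate 1 lowest. The intron change was −2.50 ± 0.324 relative to C57BL/6 (adjusted p = 7.51e-05) and −2.83 ± 0.323 relative to BALB/c (adjusted p = 1.50e-05). None of these intron reads was counted as unique. Since Per3 lies wholly inside Camta1, each of them also lies within that gene of the same strand. The intron change of Per3 therefore rests on no read counted as its own alone. How such shared reads were assigned is not given in the labels. Camta1 introns as a whole did not pass the test, at −0.16 ± 0.209 relative to C57BL/6 (adjusted p = 0.622) and −0.28 ± 0.208 relative to BALB/c (adjusted p = 0.356).

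**Figure D4:**
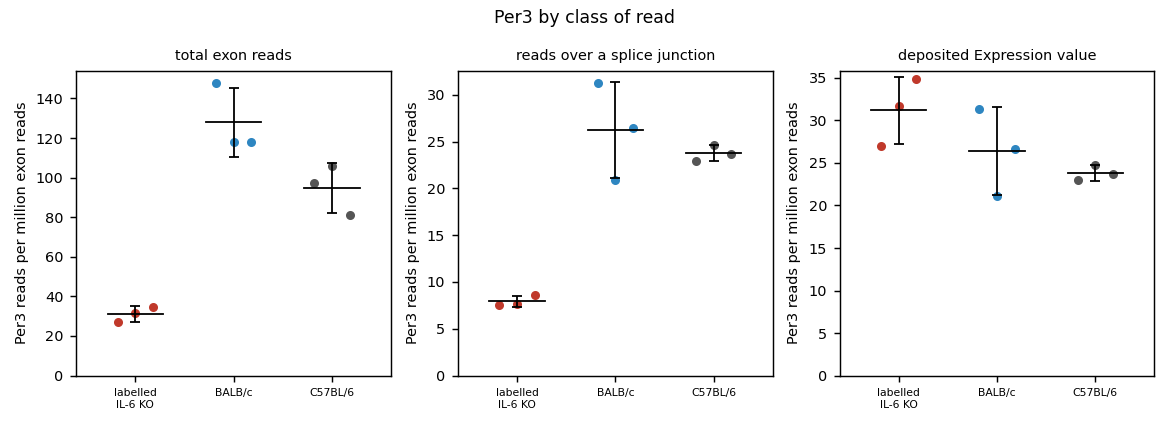
Per3 reads in CPM in each library by class of read (total exon reads, reads over a splice junction, and the authors' Expression value), with the mean and SD of 3 libraries per group and y axes from 0. The KO-labelled libraries are lowest in the first and second panels and highest on average in the third.

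Nr1d1 shares 263 exon bases with Thra, the thyroid hormone receptor gene on the opposite strand, and the labels do not say whether counting used strand. Unique reads made up 86.7% of Nr1d1 exon reads in the KO-labelled libraries, 81.8% in BALB/c and 84.4% in C57BL/6. On unique reads Nr1d1 was lower, at −1.66 relative to C57BL/6 (adjusted p = 0.00509) and −1.49 relative to BALB/c (adjusted p = 0.00830). Thra itself changed less, by −0.48 ± 0.147 relative to C57BL/6 (adjusted p = 0.0295) and −0.38 ± 0.147 relative to BALB/c (adjusted p = 0.0681). Cry2 shares 295 exon bases with the noncoding D930015M05Rik, which had 5 reads over the KO-labelled libraries, 20 over BALB/c and 22 over C57BL/6. Arntl shares 33 exon bases with the antisense gene Gm45355, and all of its exon reads were counted as unique.

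Genes next to the loop were taken from 2 lists of clock genes. The first holds 16 accessory and output factors, of which 15 were tested and Rorb was too rare. Against C57BL/6, 10 of the 15 were lower and 1 higher in the KO-labelled libraries, with a median log2 fold change of −0.96 against 0.01 for all genes, of which 16% were called lower and 19.2% higher. Against BALB/c 11 were lower and 1 higher, where 17.4% of all genes were lower and 19.9% higher. Between BALB/c and C57BL/6, 0 of the 15 were called by edgeR's quasi-likelihood test or by DESeq2, and 1 (Nfil3) had an unadjusted p under 0.05. Dbp, an E-box driven activator of D-box genes, stood at 32.3, 46.4 and 39.9 CPM in the KO-labelled libraries, 208, 228 and 202 CPM in BALB/c, and 221, 161 and 253 CPM in C57BL/6. The KO-labelled and wild-type libraries were far apart. Its log2 fold change was −2.42 ± 0.201 relative to C57BL/6 (adjusted p = 4.29e-04) and −2.42 ± 0.201 relative to BALB/c (adjusted p = 1.58e-04).

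Of the related activators, Tef gave −1.81 ± 0.169 and Hlf −1.73 ± 0.302 relative to C57BL/6 (adjusted p = 4.29e-04 and 0.00258). Usp2, a deubiquitinase under clock control, gave −1.19 ± 0.183 (adjusted p = 0.00148), and Nampt, an enzyme of NAD salvage, −0.80 ± 0.134 (adjusted p = 0.00217). Nfil3 and the genes in the next sentence fall outside the naming rule and were chosen after their values were seen. Other lower genes against C57BL/6 were Ciart, Bhlhe41, Tsc22d3 and Bhlhe40, with values from −1.15 to −0.60. Nfil3, the D-box repressor, was the 1 gene that was higher, at 49.5, 25.5 and 38.6 CPM in the KO-labelled libraries, 6.37, 6.32 and 6.33 CPM in BALB/c, and 10.8, 18 and 9.66 CPM in C57BL/6. Every KO-labelled library lay above every wild-type one, replicate 2 by the least. Its log2 fold change was 1.55 ± 0.288 relative to C57BL/6 (adjusted p = 0.00352) and 2.57 ± 0.307 relative to BALB/c (adjusted p = 5.19e-04).

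Intron reads of this list could be tested for 12 genes, and 7 were lower and 0 higher against C57BL/6 in edgeR's quasi-likelihood test (7 by DESeq2, and 8 in either direction at an unadjusted p under 0.05). Over all genes 11.4% of introns were called lower and 11.9% higher. Dbp introns changed by −2.43 ± 0.328 (adjusted p = 1.02e-04) and Tef introns by −2.08 ± 0.243 (adjusted p = 2.90e-05), close to their exon changes. Usp2 differed: its introns gave 0.58 ± 0.259 relative to C57BL/6 (adjusted p = 0.123) and 1.29 ± 0.270 relative to BALB/c (adjusted p = 0.00299), while its exons were lower against both. The exon minus intron difference of Usp2 was −1.78 ± 0.213 relative to C57BL/6 (adjusted p = 2.88e-07) and −2.20 ± 0.225 relative to BALB/c (adjusted p = 3.63e-09).

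**Figure D5:**
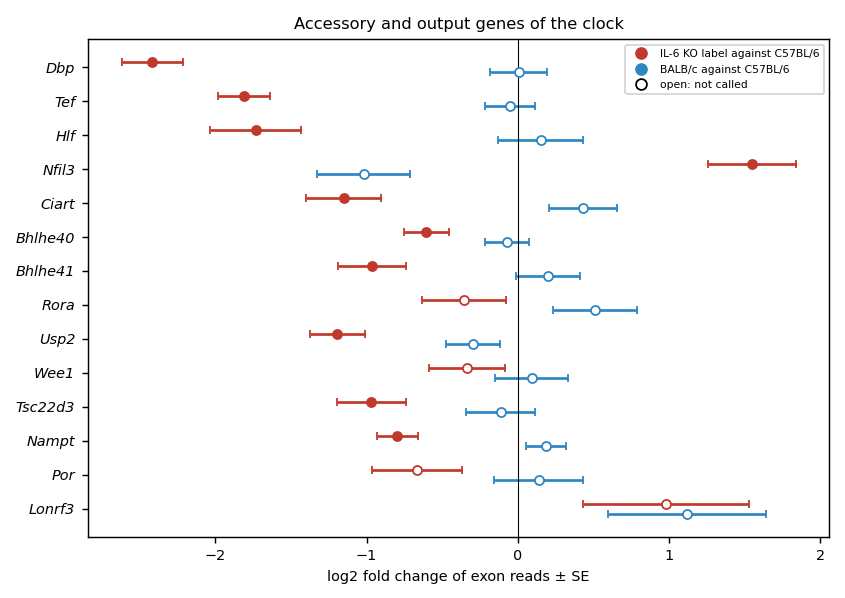
Log2 fold change ± SE of exon reads of accessory and output genes of the clock, for the KO-labelled libraries against C57BL/6 and for BALB/c against C57BL/6, with filled circles where the adjusted p is under 0.05. In the first comparison Dbp, Tef, Hlf, Usp2, Nampt, Ciart, Bhlhe41, Tsc22d3 and Bhlhe40 lie left of 0 and Nfil3 right of it with filled circles, and in the second no circle is filled.

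The second list holds 23 genes, of which 22 were tested. Most are kinases, ubiquitin ligases and corepressors that act on clock proteins. It also holds other factors, among them Arntl2, Ppargc1a, Timeless, Tipin, Nono and Wdr5. Against C57BL/6, 4 were higher and 4 lower in the KO-labelled libraries, with a median of 0.08 against 0.01 for all genes. The 8 calls of 22 are near the 35.2% of all genes called in this comparison, so the count shows nothing particular to the list, and the values below describe single genes. Csnk1e, a casein kinase that marks PER proteins for decay, stood at 200, 115 and 174 CPM in the KO-labelled libraries, against 69.1, 62.9 and 68.0 CPM in BALB/c and 65.8, 77.5 and 71.5 CPM in C57BL/6. It was higher in each of these 3 libraries than in any other, with a log2 fold change of 1.18 ± 0.191 relative to C57BL/6 (adjusted p = 0.00179). Sirt1, a deacetylase, gave 1.11 ± 0.245 (adjusted p = 0.00753) and Prkaa1, an AMP kinase subunit, 0.59 ± 0.185 (adjusted p = 0.0337). Prkaa2, the AMP kinase subunit that prevails in skeletal muscle, gave −2.17 ± 0.226 (adjusted p = 4.62e-04). Btrc, a ligase subunit that recognises PER proteins, gave −0.86 ± 0.210 (adjusted p = 0.0120). Nono (0.45) and Ppargc1a (−0.73), named after their values were seen like those listed next, were also called. Against BALB/c 5 were higher (Csnk1e, Nono, Csnk1d, Wdr5 and Timeless) and 2 lower (Prkaa2 and Ppargc1a), where 37.3% of all genes were called. Between BALB/c and C57BL/6, 0 of 22 were called by edgeR's quasi-likelihood test, 1 by DESeq2, and 1 had an unadjusted p under 0.05.

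Markers of several cell types also differed between the KO-labelled and the wild-type libraries. All 6 skeletal muscle markers (Acta1, Myh4 and Ckm among them) were lower in the KO-labelled libraries than in either wild type, with summed levels of 5334 to 6241 CPM there, 18138 to 37498 CPM in BALB/c and 37186 to 62024 CPM in C57BL/6. All 6 markers of hair shaft and matrix (Krt31 and others) were higher, with sums of 2073 to 9399 CPM in the KO-labelled libraries, 3.11 to 5.45 CPM in BALB/c, where 1 to 4 of the 6 were at 0, and 4.27 to 54.9 CPM in C57BL/6, where 3 were at 0 in 1 library. All 6 markers of proliferating cells (Mki67 and others) were higher too, at 239.9 to 586 CPM, against 88.1 to 107 CPM in BALB/c and 45.7 to 77.6 CPM in C57BL/6. Of 6 melanocyte markers, 5 were higher against both wild types (all but Sox10), with sums of 74.2 to 875 CPM in the KO-labelled libraries, 16.0 to 27.7 CPM in BALB/c, where 1 was at 0 in 1 library, and 23.8 to 31.5 CPM in C57BL/6.

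The other marker lists moved less. Of 6 keratinocyte markers, 1 was higher against C57BL/6 (Flg) and 1 lower against BALB/c (Lor), with sums of 6986 to 26575 CPM in the KO-labelled libraries, 17790 to 21248 CPM in BALB/c and 10942 to 19487 CPM in C57BL/6, so skin markers were present in each library. Of 6 fibroblast markers, 0 were called in either comparison by edgeR's quasi-likelihood test or DESeq2, and 0 had an unadjusted p under 0.05, with sums of 4906 to 17740 CPM in the KO-labelled libraries, 3858 to 11473 CPM in BALB/c and 8031 to 48282 CPM in C57BL/6. Of 6 adipocyte markers, edgeR's quasi-likelihood test called 0 against C57BL/6 (1 at an unadjusted p under 0.05, and 1 by DESeq2) and 3 lower against BALB/c (Lep, Cidec and Plin1), with sums of 631 to 1597 CPM in the KO-labelled libraries, 1408 to 6304 CPM in BALB/c and 1257 to 1692 CPM in C57BL/6. Of 5 immune markers tested 1 was lower against each (Cd3e against C57BL/6 and Cd207 against BALB/c), with sums of 107 to 329 CPM in the KO-labelled libraries, 168 to 243 CPM in BALB/c and 176 to 291 CPM in C57BL/6. The part of these cell types in the clock result was not tested. Within BALB/c, replicate 1 had a muscle sum of 18138 CPM, against 37498 and 37453 CPM in replicates 2 and 3, while its summed clock loop level was 806 CPM against 795 and 775 CPM. Within the KO-labelled libraries, replicate 2 had the lowest hair marker sum, 2073 CPM against 9399 and 7840 CPM in replicates 1 and 3, and the highest clock loop sum, 487 CPM against 271 and 347 CPM. The clock loop sum adds genes of both arms and does not stand for each member. In replicate 2, Per2 and Cry1 were the lowest of the KO-labelled libraries, Per3 lay between, and the other members were the highest. The keratinocyte sum of replicate 2 was also the highest there (26575 CPM, against 6986 and 10843 CPM). Its sums of proliferating cell markers (239.9 CPM, against 546 and 586 CPM) and melanocyte markers (74.2 CPM, against 709 and 875 CPM) were the lowest. Within C57BL/6, replicate 2 had the lowest muscle sum (37186 CPM) and the highest clock loop sum (724 CPM). Replicate 3 there had the highest muscle sum (62024 CPM) and the lowest clock loop sum (679 CPM). The clock loop sums of BALB/c and C57BL/6 ran from 775 to 806 CPM and from 679 to 724 CPM.

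The genes whose pattern over the 9 libraries was most like that of Arntl and Nr1d1 were found by the root mean square difference of log2 CPM, each gene centred on its own mean, among 11759 genes of at least 5 CPM. For Arntl they were Bok (0.139), Lrrc8e (0.141), Iffo2 (0.152), B4galnt1 (0.157) and Pkp1 (0.158). For Nr1d1 they were Trim7 (0.161), Ache (0.167), Gypc (0.209), Cyp27a1 (0.214) and Abca8b (0.222). No member of the loop or of the clock lists is among these 10 genes.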

How the data were processed

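Per the labels' protocols, total RNA from mouse skin was extracted with Tri-Reagent and made into TruSeq libraries. The aligner is not given in the sources used here, and GRCm38 is named in the submitters' processing notes. The deposited tables hold counts of reads per gene, split by the authors into exon, intron, unique and splice junction reads, per the file headers. One table held 3 stacked tables, of which the first was used. CPM (reads scaled to library size) used TMM-scaled exon or intron totals, while marker sums and the figure of Per3 read classes used plain exon totals. Counts were tested with edgeR 4.0.16 (R 4.3.3) by its quasi-likelihood F test after filterByExpr (10 and 15 reads) over all 9 libraries, with 6 residual degrees of freedom and Benjamini-Hochberg adjustment at 0.05. DESeq2 1.42.0 was an alternative. The exon minus intron test took both kinds of read in 1 model, with the library as a block. The script was tested on simulated data. Overlapping genes came from GENCODE on GRCm38, with which all 10 member spans were identical.

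The members and lists were chosen with earlier results of these data known. Genes outside the loop were named by a rule, up to 6 of each list per comparison in order of p, and others were chosen after their values were seen. Ratios used a two-sided exact permutation test. The alternatives were other scaling, no filter, a replicate block, the compared groups alone, DESeq2, other read classes, a minimum fold and each library left out. Replicates differed by more than sampling noise. Replicate numbers did not pair the libraries, and the immune marker Itgam was not analysed here. A few genes of the lists are counted but not reported here by name.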

Additional observations from a re-analysis of the deposited data

How the results depend on the processing

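The counts of called loop genes stayed within 1.5 times their main value under other scaling, without the filter, with DESeq2 (7, 0 and 8 exon calls, for the KO-labelled libraries against C57BL/6, BALB/c against C57BL/6 and the KO-labelled libraries against BALB/c), and within the compared groups alone. Requiring a log2 fold change of at least 1 left 3 exon calls of the 10 members against C57BL/6 and 1 against BALB/c. Of all 14415 genes, 1121 and 1141 were called at that setting in those comparisons. For the exon minus intron difference, scaling by library size alone gave 2 and 2 calls in those comparisons, all positive. The Clock call against C57BL/6 was lost and Per2 was gained (1.46, adjusted p = 0.0330). That scaling moved the median difference of all genes against C57BL/6 to 0.22, from −0.02 with TMM. It called 874 of 9760 genes there, 79.4% of the calls being higher, against 38.9% with TMM. Leaving the library out as a block gave 0, 0 and 0, and unique intron reads gave 0 against C57BL/6. Leaving out 1 library at a time gave 6 to 7, 0 to 1 and 5 to 9 exon calls, 4 to 8, 0 to 1 and 4 to 7 intron calls, and 0 to 3, 0 to 1 and 0 to 1 calls of the exon minus intron difference, in the order of comparisons given first. Shares of all genes called in those fits are not reported here. The exon ratio of Arntl to Nr1d1 ran over 2.12 to 2.89, −0.48 to 0.29 and 2.34 to 2.77 in those fits, turning positive between BALB/c and C57BL/6 without C57BL/6 replicate 2, and it was 0.0370 there with intron reads.

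Gene by gene, 960 alternative values kept direction and side of the threshold, 66 lost the call, 8 gained one and 30 changed sign. Against C57BL/6, Clock exon reads gave −0.0279 without the filter, −0.00523 with the replicate block, −0.0152 in the compared groups alone, −0.0159 with unique reads and −0.10 with the Expression value, and −0.29 to 0.19 with 1 library left out. On the Expression value Per3 gave 0.14 against C57BL/6 and 0.0373 against BALB/c, and Npas2 −0.00528 against BALB/c. Cry1 gave −0.11 against C57BL/6 on junction reads, and Clock introns −0.22 against BALB/c on unique reads. With 1 library left out, Npas2 ran over −0.65 to 0.16 against C57BL/6 and −0.30 to 0.32 against BALB/c. Between BALB/c and C57BL/6 the exon ranges were −0.54 to 0.0399 for Per2, −0.57 to 0.0588 for Npas2 and −0.33 to 0.10 for Nr1d1, and the intron ranges −0.18 to 0.14 for Per1, −0.29 to 0.25 for Per2, −0.31 to 0.0457 for Arntl and −0.45 to 0.0172 for Nr1d1. The causes were not tested.

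Libraries with the same replicate number did not deviate together, with correlations from −0.212 to 0.0617, so the numbers do not pair them. A replicate block gave 7, 0 and 6 exon calls and 5, 1 and 6 intron calls. It ended the calls of Per1 exon reads against BALB/c (−0.62, adjusted p = 0.0574) and Arntl intron reads against C57BL/6 (adjusted p = 0.0536), and gave 0.00616 for Per2 introns between BALB/c and C57BL/6. Over all genes, BALB/c against C57BL/6 had 491 exon calls, 1033 with DESeq2 and 255 with the block. Scaling by library size alone moved the median exon change of all genes against C57BL/6 to 0.15, against 0.01 with TMM, and the share of higher calls to 67.8%, against 54.6% with TMM. Depth limits Npas2, Cry1 introns and Per2 introns most.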
